A study of Mus musculus with 6 samples.

Results

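Small leucine-rich proteoglycans are secreted matrix proteins, and 9 of their genes, Lum, Dcn, Bgn, Fmod, Ogn, Aspn, Prelp, Omd and Podn, were followed among 19938 genes measured in 6 lines of mouse iPS cells (induced pluripotent stem cells). The 9 genes were chosen by membership of this protein family, at a time when the difference between the groups was already known, and Lum and Dcn were singled out against Bgn for how they had moved. Each gene is read by 1 probeset, so that choosing the brightest probeset by its mean over the 6 arrays left no choice among the members. The group values of the members are therefore a description, and nothing is read from how many of them passed the test.

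All 6 lines came from OG2 mouse embryonic fibroblasts that had been infected with retroviruses for Sox2, Klf4, Oct4 and c-Myc. The 3 control clones (Ctrl 2, 3 and 4) also received an shRNA against Luciferase, and the 3 shECAD clones (shECAD 4, 8 and 9) an shRNA against E-cadherin, the adhesion protein encoded by Cdh1. Values per clone are given in the order of these numbers. Infected cells went onto a feeder layer at day 6, colony picking followed at day 14, and the lines were then kept on feeders, which were eliminated before RNA extraction. Each line is 1 clone with 1 array, no separate infections are named, and p-values thus measure the spread between clones only. Values are log2 expression per probeset, for which the submitters' notes name RMA, and the array medians lay between 5.11 and 5.30. No detection calls were used. A value below the 25th percentile of its array (3.73 to 4.01) is called dim here.

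The core of these proteins is a curved stack of leucine-rich repeats that binds fibrillar collagen and helps to set the spacing and width of its fibrils. Many members carry chondroitin, dermatan or keratan sulfate chains, and several also bind growth factors of the TGF-beta family or cell surface receptors. They are typical products of fibroblasts and other connective tissue cells. In a bulk RNA sample, fewer cells of a type and less RNA per cell cannot be told apart.

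The pluripotency markers were high in every clone. The mean of 8 of them ranged from 9.95 to 10.27 over the controls and from 9.46 to 9.97 over the shECAD clones, and 0 of 8 passed the test in either direction (limma, 0 higher and 4 lower at an unadjusted p below 0.05). Cdh1, the target of the shRNA, had a log2 fold change of -2.13 ± 0.27 (SE), with a limma adjusted p of 0.00683. Of 19 measured fibroblast and feeder markers other than the members, 14 rose and 0 fell. Their mean was 6.40, 5.95 and 5.51 in the controls, against 7.20, 7.47 and 7.18 with shECAD. Of these 19 markers, 0 were dim on all arrays, while Fap was dim on 5 and Postn and Ccdc80 on 1 each. Of 6 smooth muscle markers 3 rose (Acta2, Tagln and Cnn1), with list means of 5.01 to 5.46 in the control clones and 6.37 to 6.66 in the shECAD clones. None of the 7 cartilage, 5 bone and tendon, 4 endothelial or 4 macrophage markers measured passed the test in limma, although 7 were higher and 2 lower at an unadjusted p below 0.05. The part of these other cell types in the results that follow was not tested.

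Several members lie beside each other in the genome. The RefSeq table (GRCm38.p6, used for gene order and promoter sequence) places Dcn next to Lum on chromosome 10, Prelp near Fmod on chromosome 1, and Aspn, Omd and Ogn in a row on chromosome 13, whereas Bgn lies on chromosome X and Podn on chromosome 4. Promoter sequences were at hand for 7 of the 9 members, without Lum and Dcn. The stretch of 250 bases before the start of the transcript is printed for Bgn and Aspn, which passed the test, and for Omd and Ogn, the neighbours of Aspn, 5′ to 3′ with each CG pair in capitals.
Bgn, chrX:73483351-73483600, + strand: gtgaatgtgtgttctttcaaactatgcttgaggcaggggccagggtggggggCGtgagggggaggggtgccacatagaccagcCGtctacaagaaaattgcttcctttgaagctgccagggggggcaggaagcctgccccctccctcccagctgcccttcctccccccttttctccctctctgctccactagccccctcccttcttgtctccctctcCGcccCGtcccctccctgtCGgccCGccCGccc
Aspn, chr13:49544193-49544442, + strand: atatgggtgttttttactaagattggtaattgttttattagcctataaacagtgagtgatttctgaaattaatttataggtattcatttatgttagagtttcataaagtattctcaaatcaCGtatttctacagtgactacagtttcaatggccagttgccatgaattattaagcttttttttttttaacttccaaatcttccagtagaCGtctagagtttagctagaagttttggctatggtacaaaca
Omd, chr13:49582212-49582461, + strand: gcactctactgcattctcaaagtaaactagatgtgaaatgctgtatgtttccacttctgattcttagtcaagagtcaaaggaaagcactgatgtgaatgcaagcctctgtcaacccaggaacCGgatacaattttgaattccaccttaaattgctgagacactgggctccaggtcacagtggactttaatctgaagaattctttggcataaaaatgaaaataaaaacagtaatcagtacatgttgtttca
Ogn, chr13:49607765-49608014, + strand: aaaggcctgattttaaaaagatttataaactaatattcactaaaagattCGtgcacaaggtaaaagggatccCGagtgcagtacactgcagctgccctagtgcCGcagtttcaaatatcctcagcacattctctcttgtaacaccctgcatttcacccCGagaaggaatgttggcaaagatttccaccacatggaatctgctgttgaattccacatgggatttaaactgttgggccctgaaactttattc

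The promoter of Bgn is the richest in G and C of these 4, at 64.4% with 7 CG pairs, and the promoter of Aspn the poorest, at 30.0% with 2. Those of Omd and Ogn hold 38.4% and 42.0%, with 1 and 4 CG pairs. Over all 32851 promoters the medians were 52.4% and 6 CG pairs, and the Aspn promoter lay at percentile 1.61 of G and C content. Podn has 2 listed starts, and the promoter of one of them, with 78.0% G and C and 32 CG pairs, lay at percentile 98.1. Motifs were searched on both strands. TATAAA, the letters of a TATA box, stands 207 and 178 bases before the start of Aspn, the nearer copy on the opposite strand. It stands 229 and 227 bases before the start of Ogn, where its copies on opposite strands overlap, and is found in 12.4% of all promoters. Whether any of these copies acts as a TATA box was not tested. GGAATG, the core bound by TEAD factors, stands 86 bases before the start of Ogn and is found in 12.6%. CAGAC, bound by SMAD factors, was found in the windows of Prelp and Fmod and in 42.2% of all promoters. Neither the Bgn nor the Omd window holds any of these letters.

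Among the members of the decorin group, Bgn and Aspn rose and Dcn did not pass the test. Bgn encodes biglycan, the closest relative of decorin, which binds collagen and in soluble form acts on Toll-like receptors. It read 7.83, 7.18 and 5.95 in the controls, against 8.61, 8.83 and 8.63 with shECAD. Every shECAD clone was above every control clone, and the shECAD clones lay close together while the control clones were spread over 1.88 log2 units. The means were 6.99 ± 0.95 and 8.69 ± 0.12 (SD, n = 3 each), a rise of 3.26-fold (95% interval 1.85 to 5.76). On the log2 scale this was 1.70 ± 0.37 (SE; limma adjusted p = 0.0380). The mean of the 19 fibroblast markers was higher by 1.33 in the same clones, and its part in the result was not tested. Its call was lost on leaving out control clone 3 (limma adjusted p = 0.0711) or any of the shECAD clones (0.0915, 0.111 and 0.0857), and with a robust prior that follows intensity (0.0791), and the change ran from 1.19 when control clone 4 was left out to 2.13 when control clone 2 was.

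Dcn encodes decorin, which coats collagen fibrils and binds TGF-beta. It read 7.09, 7.01 and 5.44 in the controls, against 7.02, 7.27 and 6.70 with shECAD. The shECAD clones lay around control clones 2 and 3, and control clone 4 alone was low. The means were 6.51 ± 0.93 and 7.0 ± 0.28 (SD, n = 3 each), and they differed by 0.48 ± 0.37 (SE), with a 95% interval from -0.35 to 1.31 (limma adjusted p = 0.547). In the alternatives this difference ran from -0.06 without control clone 4 to 0.84 with array weights, and Dcn passed in none (limma adjusted p 0.259 or more). The interval covers changes from a slight drop to 2.48 times the control level, so that a change of this size was not detectable, which is not to say that none took place.

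Aspn encodes asporin, a relative of decorin named for a run of aspartate residues near its start. Its values were 2.93, 3.03 and 3.05 in the controls, against 3.89, 5.12 and 4.09 with shECAD. All control values were dim, as was that of shECAD clone 4, and shECAD clone 8 stood highest. The groups did not overlap and Aspn was called higher (limma adjusted p = 0.0302). Since the control level is dim, the size of the change is not read. The call held without shECAD clone 8, whereas it was lost on leaving out any of the controls (limma adjusted p = 0.0625, 0.0659 and 0.0921), and after quantile normalization (0.0554).

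**Figure D1:**
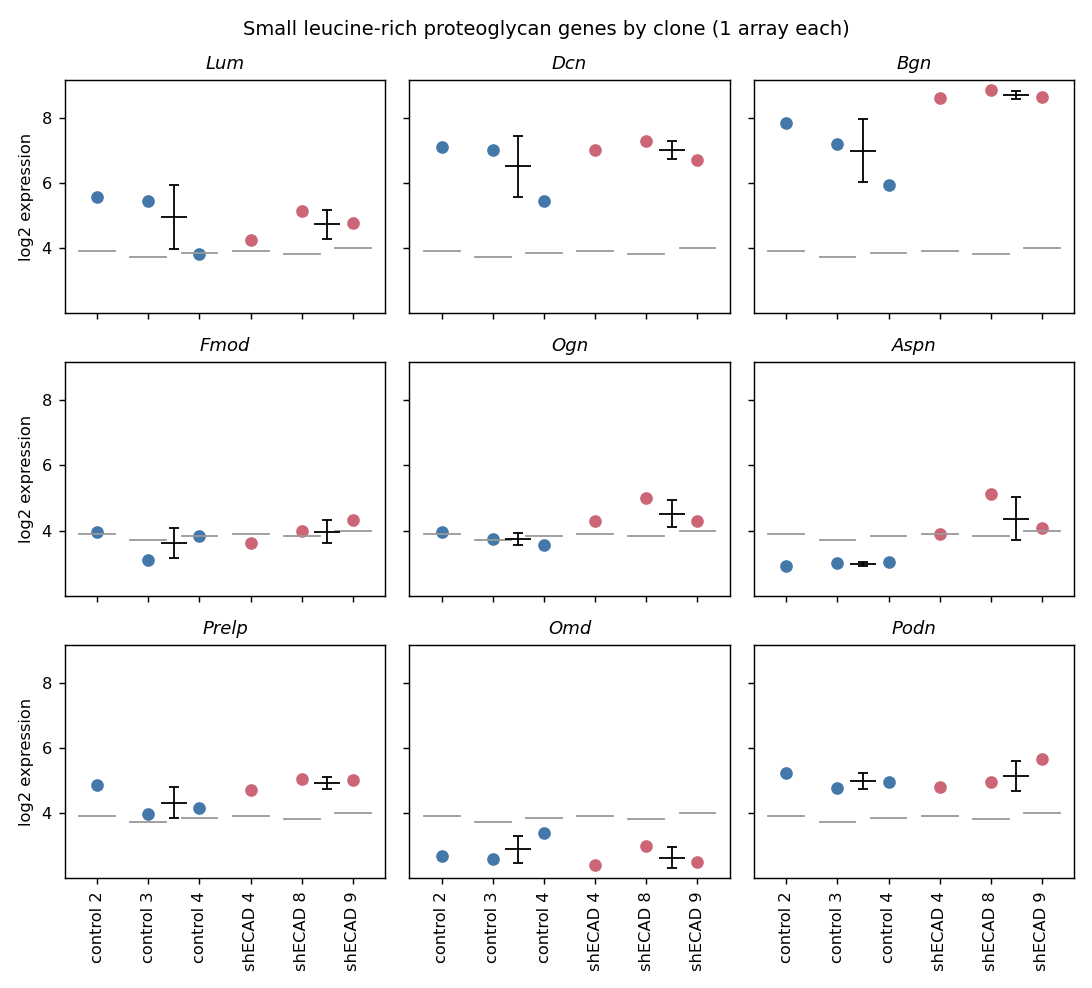
Log2 expression of the 9 members (y axis) in each of the 6 clones (x axis; blue points control, red points shECAD, 1 array each). Black marks are group means with SD bars, and grey lines the 25th percentile of each array. The shECAD points lie above all control points for Bgn, Ogn and Aspn, and control clone 4 lies lowest for Lum, Dcn and Bgn.

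Of the lumican and fibromodulin group, none passed the test. Lum encodes lumican, a keratan sulfate proteoglycan needed for a clear cornea. It read 5.58, 5.45 and 3.84 in the controls, against 4.26, 5.14 and 4.79 with shECAD. All shECAD clones were below control clones 2 and 3, and above control clone 4, whose value was dim. The means were 4.96 ± 0.97 and 4.73 ± 0.44 (SD, n = 3 each), with a log2 fold change of -0.23 ± 0.41 (SE) and a 95% interval from -1.12 to 0.67 (limma adjusted p = 0.816). On leaving out control clone 4 it was -0.79 (limma adjusted p = 0.199), and it turned positive when control clone 2 (0.09), control clone 3 (0.02) or shECAD clone 4 (0.0079) was left out. The sign for Lum thus rested on single clones.

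Fmod encodes fibromodulin, a regulator of collagen fibrils in tendon. It read 3.97, 3.11 and 3.83 in the controls, against 3.63, 3.99 and 4.33 with shECAD, and the groups overlapped, with 3 of 6 values dim. Prelp encodes a protein that binds collagen and the heparan sulfate of basement membranes. It read 4.87, 3.97 and 4.16 in the controls, against 4.73, 5.06 and 5.02 with shECAD, where only control clone 2 reached into the range of the other group. Prelp had a log2 fold change of 0.60 ± 0.23 (SE) and a limma adjusted p of 0.199. It passed the test only without control clone 2, the one that overlapped, with 0.87 (limma adjusted p = 0.0431). In the alternatives its change ran from 0.42 to 0.87, with limma adjusted p up to 0.494. Omd encodes osteoadherin, a keratan sulfate proteoglycan of bone. Its values, 2.71, 2.61 and 3.39 in the controls, against 2.42, 3.01 and 2.53 with shECAD, were dim on all 6 arrays, so that no level or change can be read for it. The log2 fold change of Fmod was 0.35 ± 0.25 (SE, limma adjusted p = 0.514), and neither Fmod nor Omd passed the test.

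Ogn and Podn stand for the more distant branches of the family. Ogn encodes osteoglycin, also called mimecan, a small proteoglycan of bone, vessel wall and cornea. Ogn read 3.96, 3.74 and 3.58 in the controls, against 4.30, 5.0 and 4.29 with shECAD. Control clone 4 was dim, and control clones 2 and 3 lay just above the 25th percentile of their arrays (3.91 and 3.73). The size of the change therefore starts from a level near the dim limit. The groups did not overlap, and as for Aspn the highest value was that of shECAD clone 8. Its log2 fold change of 0.77 ± 0.21 (SE) did not pass the test (95% interval 0.30 to 1.24, limma adjusted p = 0.0834), but did with array weights (0.0435). In the alternatives the change of Ogn ran from 0.53 to 0.89, with limma adjusted p from 0.0435 to 0.248. Podn encodes podocan, first described in the kidney glomerulus. It read 5.25, 4.79 and 4.95 in the controls, against 4.80, 4.95 and 5.66 with shECAD, with overlapping groups and a log2 fold change of 0.14 ± 0.23 (SE, limma adjusted p = 0.794).

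In all, 2 of the 9 members were called higher and 0 lower (limma, 4 higher and 0 lower at an unadjusted p below 0.05), beside 1.90% of all genes called higher and 1.23% called lower. With the median of every array set equal, the calls over all genes turned from 378 higher and 245 lower to 303 and 377, while both called members stayed called. The groups did not overlap for 3 of 9 members, all higher, beside 11.1% of all genes higher and 12.5% lower. The median log2 fold change of the members was 0.48 and that of all genes 0.025, and 7 of 9 members had a positive sign, as had 53.7% of all genes. The median and signs include Omd, Aspn and Fmod, which were dim on 6, 4 and 3 arrays. The signs of Lum, Dcn and Podn turned in some alternatives, so no trend of the family is read. Without control clone 3 none of the members was called (3 higher and 0 lower at an unadjusted p below 0.05 in limma), and 1 was called on leaving out control clone 4 (Bgn) or any of the shECAD clones (Aspn). Without control clone 4, 3 were higher and 1 lower by the unadjusted p of limma. Over all genes the calls fell from 623 to 271 and 146 without control clone 3 or 4. They fell to 231, 156 and 290 without shECAD clone 4, 8 or 9.

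**Figure D2:**
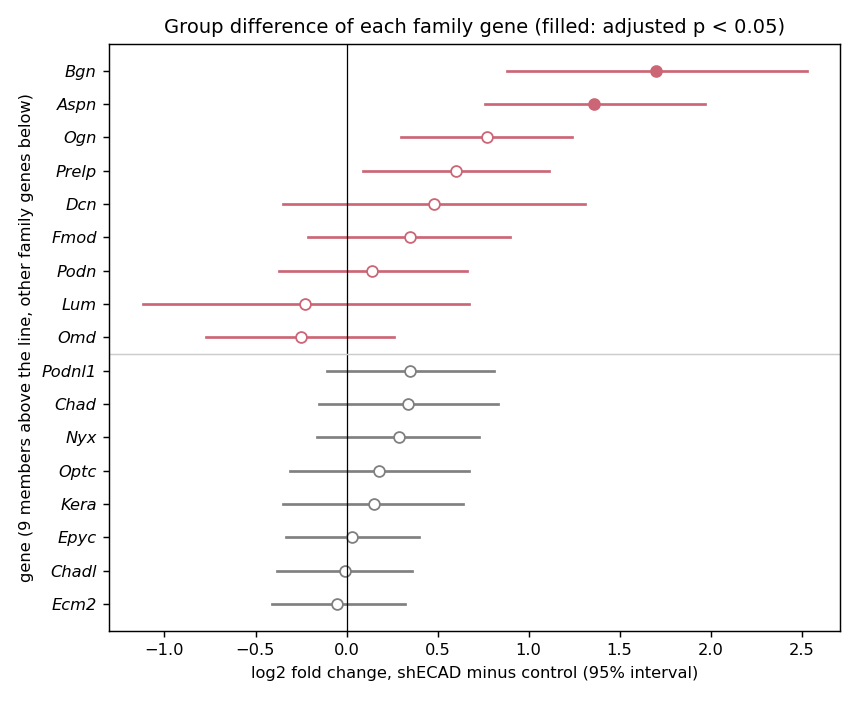
Log2 fold change, shECAD minus control (x axis), with its 95% interval from limma, for the 9 members (red, above the line) and 8 other measured genes of the family (grey, below it). Filled points passed an adjusted p of 0.05. Bgn and Aspn are filled, the intervals of Ogn and Prelp lie above 0, and Lum has one of the widest intervals, from -1.12 to 0.67. Omd and the controls of Aspn are dim, so the sizes plotted for these genes are not read.

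The members also differed in their spread among clones of a group. The SD within groups was 0.75 for Lum, 0.69 for Dcn and 0.68 for Bgn, at percentiles 99.6, 99.4 and 99.3 of all genes, whose median was 0.21. Over the other members it ran from 0.32 for Ogn to 0.47 for Aspn, at percentiles 81.7 and 96.1. For Lum, Dcn and Bgn it came mainly from the control clones. Control clone 2 exceeded control clone 4 by 1.75 for Lum, 1.65 for Dcn and 1.88 for Bgn on the log2 scale, and by 0.90 for the mean of the fibroblast markers. Single fibroblast markers ranged from -0.17 for Thy1 to 1.93 for Col1a2, with Col1a1 at 1.70 and Prrx1 at 1.60, so that gaps of this size were not particular to the proteoglycan genes. Of those 19 markers, 16 were lowest in control clone 4 among the control clones and 16 were highest in control clone 2. The other 6 members differed by -0.68 to 0.72 between the same 2 clones.

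In the shECAD clones Bgn stood further above Lum and Dcn than in the controls. This difference was named when the genes were chosen, so it is described without a test. Levels of different probesets are not comparable, but the change of their difference across arrays is. The value of Bgn minus the mean of Lum and Dcn was 1.49, 0.95 and 1.31 in the controls, against 2.97, 2.63 and 2.89 with shECAD. It was higher in every shECAD clone than in any control clone. On average it was 1.25 ± 0.28 in the controls and 2.83 ± 0.18 with shECAD (SD, n = 3 each), a difference of 1.58. The difference between Dcn and Lum also went from 1.51, 1.56 and 1.60 in the control clones to 2.76, 2.13 and 1.92 in the shECAD clones.

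The same differences were taken against Col1a1, which encodes a chain of type I collagen, the main fibrillar collagen of connective tissue. Bgn minus Col1a1 was -0.89, -0.60 and -1.07 in the controls, against -1.09, -1.07 and -1.21 with shECAD. For Dcn the values were -1.63, -0.76 and -1.59 against -2.68, -2.63 and -3.14, and for Lum -3.14, -2.33 and -3.19 against -5.44, -4.76 and -5.05. The shECAD mean minus the control mean was -0.27 for Bgn, -1.49 for Dcn and -2.20 for Lum. Col1a1 is among the fibroblast markers with the largest log2 fold changes, which ran from 0.38 for Pdgfra, 0.54 for Fstl1 and 0.59 for Sparc to 2.35 for Lox, and that of Dcn (0.48) lay between those of Pdgfra and Fstl1. Relative to the mean of the fibroblast markers, the shECAD mean minus the control mean was 0.38 for Bgn, -0.85 for Dcn and -1.56 for Lum. Per clone, Bgn was at 1.43, 1.23 and 0.44 in the controls, against 1.41, 1.36 and 1.45 with shECAD, and the groups overlapped. For Dcn the values were 0.69, 1.06 and -0.07 against -0.18, -0.20 and -0.48, with control clone 4 close to the shECAD clones. Those of Lum were -0.82, -0.50 and -1.67 against -2.94, -2.33 and -2.39.

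**Figure D3:**
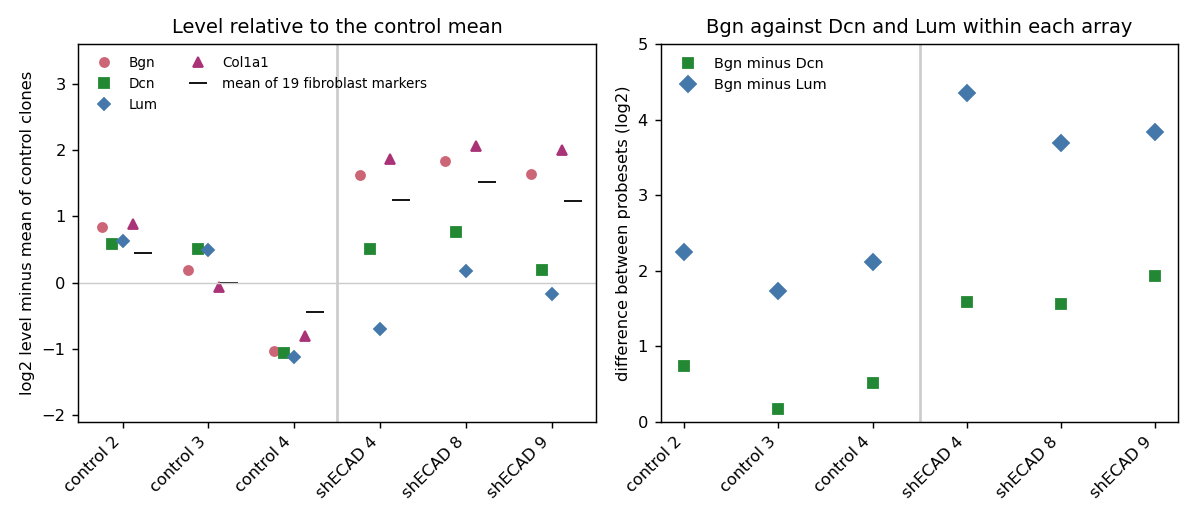
Left: log2 level minus the mean of the control clones (y axis) for Bgn, Dcn, Lum, Col1a1 and the mean of 19 fibroblast markers in the 6 clones (x axis). Right: difference between the probesets of Bgn and Dcn or Lum on the same array. In control clone 4 Bgn, Dcn and Lum are low together, and in the shECAD clones Bgn stands near Col1a1 with Dcn and Lum below both in every clone.

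Genes whose values over the 6 arrays were most like those of Lum, Dcn and Bgn were taken from 9710 brighter genes by Pearson's r. These are descriptions over 6 arrays that share a group structure. Nearest to Bgn were Mxra8, a cell surface gene of the immunoglobulin family (r = 0.999), Cpe, the gene of carboxypeptidase E (0.997), and Tmem176b, a membrane protein gene (0.996). Since these genes were selected for their likeness over all 6 arrays, their group differences are not tested. Nearest to Dcn were Pakap (0.985), Tada1 (0.981), a subunit gene of a histone acetyltransferase complex, and Rgs12 (0.979), a regulator of G protein signalling. Nearest to Lum were Rab31 (0.990), a small GTPase gene of vesicle traffic, Ctsf (0.971), which encodes cathepsin F, and Ciapin1 (0.953), an iron-sulfur protein gene.

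None of the other genes next to the members passed the test. Beside Aspn and Ogn on chromosome 13, the family gene Ecm2 had a log2 fold change of -0.05, and the next genes Nol8 and Iars had -0.36 and -0.07. Ecm2 was dim, as was Omd between Aspn and Ogn. Beside Dcn and Lum, the family genes Kera and Epyc, of cornea and cartilage, had log2 fold changes of 0.15 and 0.03 at dim levels. Beside Bgn, Haus7 and Atp2b3 had -0.21 and 0.27. Optc, the family gene next to Prelp, had 0.18, and Btg2 next to Fmod 0.58 (limma adjusted p = 0.0780). Beside Podn, Slc1a7 and Scp2 had 0.04 and -0.61 (limma adjusted p = 0.946 and 0.195).

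Of the 8 other measured genes of the family, 0 were called (limma, 0 at an unadjusted p below 0.05 in either direction), and their median log2 fold change was 0.16. The largest were those of Podnl1, the podocan-like gene, at 0.35, and Chad, the chondroadherin gene of cartilage, at 0.34. Epyc, Kera and Ecm2 read between 2.48 and 3.44 and were dim on all 6 arrays.

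The enzymes that build and sulfate the sugar chains were mostly without a call. Of 32 genes, 2 rose and 0 fell, with a median log2 fold change of 0.26 (limma, 11 higher and 0 lower at an unadjusted p below 0.05). Both act on dermatan sulfate, the form of chain that biglycan and decorin carry in skin. Chst14, the dermatan 4-O-sulfotransferase gene, read 5.95, 5.90 and 5.65 in the controls, against 6.89, 6.48 and 6.93 with shECAD (log2 fold change 0.93 ± 0.18 SE, limma adjusted p = 0.0252). Dsel, related to the dermatan sulfate epimerase gene Dse, read 4.99, 5.24 and 5.16 against 5.78, 5.98 and 5.96 (0.78 ± 0.15, limma adjusted p = 0.0278). No shECAD value of either gene fell within the control range. Dse itself had -0.08, and Xylt1 and Xylt2, which start the chain, had -0.02 and -0.24, none of which passed. None of the 32 was called when control clone 3 or 4, or shECAD clone 4 or 9, was left out. Calls over all genes also fell in each of these fits.

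Of 11 collagen genes whose products these proteoglycans bind, 6 rose and 0 fell, and the median log2 fold change was 1.03. Col12a1, which encodes a collagen of fibril surfaces, had the largest, 2.04 ± 0.28 (SE, limma adjusted p = 0.00833), followed by Col1a1 with 1.97 ± 0.34 (0.0170), Col1a2 with 1.84 ± 0.37 (0.0308), Col6a3 with 1.31 ± 0.28 (0.0339) and Col5a2 with 1.07 ± 0.23 (0.0397). Col3a1 had 0.82 and did not pass (0.172), and Col1a2 was not called with a robust prior that follows intensity. Of 28 ligand and receptor genes, 6 rose and 0 fell, with a median of 0.47. Among the called genes, Pdgfrb (1.68), the TGF-beta gene Tgfb3 (1.12) and the integrin gene Itgb1 (0.94) had the largest changes. Next were Egfr (0.94), whose receptor binds decorin, and the TGF-beta gene Tgfb2 (0.88). Cd44 (1.45) and Lrp1 (0.96) exceeded some of these but did not pass (limma adjusted p = 0.0727 and 0.0534). Bmp2 did not pass either (1.02, limma adjusted p = 0.0860). Its control values of 3.90, 3.69 and 2.61 were all dim, so the size of its change is not read. The Toll-like receptor genes Tlr2 and Tlr4, receptors of soluble biglycan, were at -0.01 and 0.29 in log2 fold change, and neither passed. Tlr4 was dim on 5 of the 6 arrays. Of 21 matrix processing genes, 7 rose and 0 fell, with a median of 0.71. Lox, which cross-links collagen, had 2.35, Mmp13, a collagenase gene, 1.47, Vcan, the gene of the large proteoglycan versican, 1.28, Bmp1, whose product cleaves the precursor of biglycan, 1.21, and Loxl1, related to Lox, 1.15 (limma adjusted p = 0.0070, 0.0223, 0.0199, 0.0296 and 0.0308). Col1a1, Col1a2, Col3a1, Pdgfrb, Lox and Loxl1 are also among the fibroblast markers, whose mean differed by 1.33. In the order collagens, ligands and receptors, and matrix processing, the calls became 8, 11 and 8 on leaving out control clone 2, and 2, 2 and 1 for control clone 3. They became 2, 1 and 1 for control clone 4, 2, 1 and 3 for shECAD clone 4, 1, 0 and 1 for shECAD clone 8, and 3, 4 and 5 for shECAD clone 9. Over all genes the 623 calls became 543, 271 and 146 without control clones 2, 3 and 4 in turn. Without shECAD clones 4, 8 and 9 in turn they became 231, 156 and 290.

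**Figure D4:**
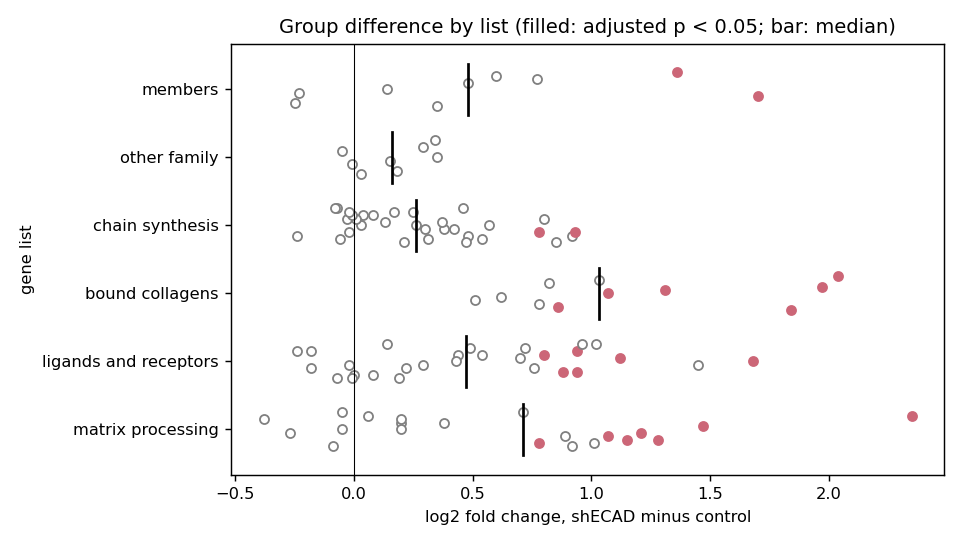
Log2 fold change, shECAD minus control (x axis), of each measured gene in 6 lists (y axis: the 9 members, other family genes, chain synthesis, bound collagens, ligands and receptors, matrix processing). Filled points passed a limma adjusted p of 0.05 and black bars are list medians, which run from 0.16 in the other family genes to 1.03 in the bound collagens.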

How the data were processed

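Total RNA (100 ng per clone) was hybridised to 1 whole-transcript array per clone. The deposited log2 values were made by the authors, and the submitters' processing notes name RMA and Partek. No version, setting or build is given in the sources used here. They were used as deposited. Of 28853 probesets, 21789 have 1 gene symbol in the platform annotation, 1621 have several and 5443 have none here. The brightest single-symbol probeset by its mean stood for each gene, leaving 19938 genes with no filter. Groups were compared with limma 3.58.1 (R 4.3.3; lmFit, eBayes), with Benjamini-Hochberg adjustment over all genes and a threshold of 0.05. The number of arrays limits the precision.

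The members and lists were chosen with earlier results of these data known. Named genes are the members, Cdh1, in each list up to 5 called genes by size or else the 2 largest, and the 3 genes most like Lum, Dcn and Bgn (mean at or above the median, predicted genes left out). Tlr2, Tlr4, Cd44, Bmp2, Lrp1, Col3a1, Dse, Xylt1, Xylt2, dim family genes and genomic neighbours were added after their values were seen. Tsku, Wisp1, Loxl2, Fbn1, Runx2 and Bglap had no single-symbol probeset of that name. Alternatives were median centring, quantile normalization, brighter genes only, mean of probesets, a robust prior that follows intensity, array weights, a threshold of 0.1, and leaving out each clone. In simulated data for this comparison over 19938 genes, 6% of changes of 0.5 (log2), 88% of 1 and 100% of 1.5 were recovered, with 8 false calls. These shares are not read for Lum, Dcn or Bgn. Their SD within groups ran from 0.32 for Ogn to 0.75 for Lum, with 0.69 for Dcn and 0.68 for Bgn. The median over all genes was 0.21. Figures used matplotlib 3.10.9.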

Additional observations from a re-analysis of the deposited data

How the results depend on the processing

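Of the 9 members, 2 were called higher in the deposited values and also after median centring or averaging probesets. The count was 1 after quantile normalization (Bgn), among brighter genes only (Bgn, with 2 members left to test) and with a robust prior that follows intensity (Aspn), 3 with array weights or a threshold of 0.1 (Ogn added), and 0 to 2 with 1 clone left out. No alternative called a member lower. Groups did not overlap for 3 members, for 1 among brighter genes only, and for 3 to 5 with 1 clone left out. The share of all genes without overlap was not counted in the alternatives. With 1 clone left out groups separate more readily, so a higher count there is not read as a result. The cause of the changes in these counts of members was not tested, other than that fewer members were tested among brighter genes. Bgn minus the mean of Lum and Dcn in log2 fold change ran from 1.43 to 1.70 in the alternatives that kept Lum, beside 1.58. It could not be taken among brighter genes only, where Lum was left out. With array weights the sign turned for Lum (0.0089) and Podn (-4.3e-05). With 1 clone left out, Lum ran from -0.79 to 0.087, Dcn from -0.056 to 0.77 and Podn from -0.12 to 0.31. Over all genes, 623 calls (378 higher) became 1067 (644) with array weights, 1278 (709) at a threshold of 0.1 and 146 to 543 (80 to 378) with 1 clone left out. In the partner lists, 21 higher calls became 32 with array weights, 33 at a threshold of 0.1 and 3 to 29 with 1 clone left out, and 0 genes were called lower in any alternative. Omd and the control values of Aspn lie below the 25th percentile of each array, and the control values of Ogn lie below or just above it. This limits what can be read from them.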
